A study of Mus musculus with 5 samples.

Results

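The 10 genes described here belong to cyclic nucleotide signaling: the phosphodiesterase genes Pde3a, Pde4a, Pde4b, Pde4d, Pde5a and Pde7b, the kinase genes Prkar1b and Prkg1, and the subunits of soluble guanylyl cyclase, Gucy1a3 and Gucy1b3. They were chosen by symbol from a count table of 23478 genes, and all 10 were found and passed the filter on low counts, with at least 496 reads in every library. The list was selected on knowledge of the levels and fold changes of these libraries, so that the genotypes are compared for the 10 genes as a description, with no test.

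Cyclic AMP and cyclic GMP are second messengers made by adenylyl and guanylyl cyclases and broken down by phosphodiesterases. Soluble guanylyl cyclase, a heterodimer of an alpha and a beta subunit, is the receptor of nitric oxide. Cyclic GMP acts through cyclic GMP-dependent protein kinase and cyclic AMP mainly through protein kinase A, and in the lung both pathways are known for relaxing vascular and airway smooth muscle.

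RNA-Seq libraries were made from GFP-positive cells sorted from mouse lungs at postnatal day 6. All groups carried Gli1-CreERT2, a tamoxifen-activated recombinase driven by the Gli1 promoter, together with the Rosa26-eGFP reporter, and all pups received 100 µg tamoxifen on P0 and again on P1. The 2 Control libraries were Igf1r Flox/Wildtype and the 3 Mutant libraries were Igf1r Flox/Flox, meant to lose both copies, so that the Control cells could lose 1 copy of the insulin-like growth factor 1 receptor gene. The study used male and female pups of mixed genetic background. The number of pups in each library is not given in the sources used here, and no source states that the libraries came from separate animals, so that any p-value measures the spread between these samples, which may be technical.

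Depth was even, with 35116766 to 37597857 counts per library. Igf1r had 324 and 324 CPM (counts relative to the library total, scaled with TMM, the trimmed mean of M-values) in the Controls against 140, 177 and 194 CPM in the Mutant libraries, a log2 fold change of -0.93 (standard error 0.14) with an adjusted p of 0.354 in the quasi-likelihood test of edgeR (Benjamini-Hochberg). Its adjusted p was 1.06e-05 by DESeq2, so the call depended on the method. The label of fibroblast cells was compared with marker lists. The summed level of 10 fibroblast markers was 47149 and 47478 CPM in the Controls and 33234 to 45739 CPM after deletion. All 10 had a negative log2 fold change, with a median of -0.3, and Fn1 alone had 18484 and 16139 CPM in the Controls. The summed level of 8 leukocyte markers was 404 to 526 CPM against 213 to 438 CPM, that of 8 endothelial markers 497 to 505 CPM against 251 to 709 CPM, and that of 8 epithelial markers 864 to 896 CPM against 425 to 953 CPM. No marker of these lists was at 0 in every library.

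The promoter windows are shown first because the cyclic AMP response element (CRE), the DNA motif of the transcription factor CREB, is known as the site through which cyclic AMP acts on genes. RefSeq (GRCm38.p6) gave 20 windows for 9 of the 10 genes, each read over the 250 bases before an annotated start, and none for Pde3a. The CRE core TGACG was searched on both strands and was found in 4 windows of 4 genes, or 20% of the windows, beside 17.8% of all 32851 promoters. The search for TGACG does not overlap that for the TEAD site GGAATG, on both strands, which lay in 3 windows of 2 genes, Prkar1b and Pde4a, with 12.6% of all promoters holding it. The FOXO site GTAAACA and the CArG box of serum response factor were found in 0 of the 20 windows, and in 3.2% and 1.5% of all promoters. A match is a description of letters and neither a bound site nor a cause. The 4 windows with a CRE core run from 120 to 21 bases before the start on the strand of the gene, 5′ to 3′, with the core or its reverse complement in capitals. They lie at chr3:82074732-82074831 (minus strand) for Gucy1b3, chr4:102421435-102421534 (plus strand) for Pde4b, chr5:139150022-139150121 (minus strand) for Prkar1b and chr9:21183981-21184080 (plus strand) for Pde4a. Those of Pde4b and Pde4a precede starts inside the annotated gene spans.
Gucy1b3: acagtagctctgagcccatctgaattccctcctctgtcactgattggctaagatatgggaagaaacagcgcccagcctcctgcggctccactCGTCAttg
Pde4b: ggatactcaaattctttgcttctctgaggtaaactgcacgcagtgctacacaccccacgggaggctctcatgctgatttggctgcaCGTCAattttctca
Prkar1b: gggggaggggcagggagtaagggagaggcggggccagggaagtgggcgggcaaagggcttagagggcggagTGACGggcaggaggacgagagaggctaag
Pde4a: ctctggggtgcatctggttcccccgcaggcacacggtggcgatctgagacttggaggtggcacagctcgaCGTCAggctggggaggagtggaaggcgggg
The core lay 24 to 28 bases before the start in Gucy1b3, 30 to 34 in Pde4b, 45 to 49 in Prkar1b and 46 to 50 in Pde4a. Among these 4 genes Pde4b, Gucy1b3 and Pde4a had a higher mean level after Igf1r deletion and Prkar1b a lower one, as given next.

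Across the 10 genes, 2 had every Mutant library above both Controls (Pde4b and Gucy1b3), 1 had every Mutant library below both (Prkar1b), and in 7 the groups overlapped. Of all 15298 genes tested, 31.0% had groups that did not overlap, 16.0% with the Mutant libraries higher and 14.9% with them lower. The log2 fold change (Mutant minus Control, from the edgeR fit) was positive for 8 of the 10 genes and negative for 2, with a median of 0.43 beside 0.015 over all genes tested. Because the same contrast was known when the genes were listed, nothing is read from these shares.

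**Figure D1:**
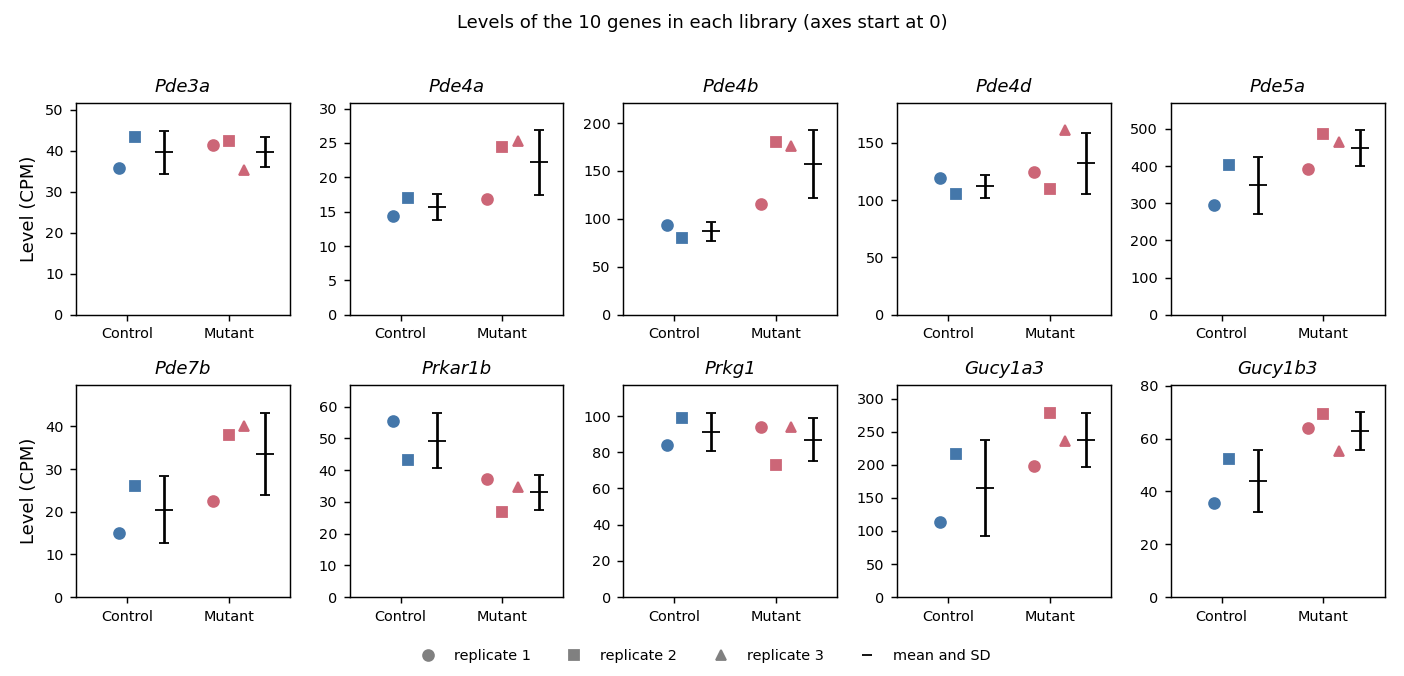
Level of each of the 10 genes in CPM (vertical axis, from 0) in the 2 Control and 3 Mutant libraries; symbols mark the replicate number and the black bars the mean and SD. For Pde4b and Gucy1b3 all Mutant points lie above both Controls, for Prkar1b all lie below, and in the other 7 panels the points of both groups overlap.

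Soluble guanylyl cyclase is encoded by Gucy1a3 (alpha 1 subunit, now named Gucy1a1) and Gucy1b3 (beta 1 subunit, now named Gucy1b1), which lie 17.7 kb apart on the minus strand of chromosome 3 (mm10, GENCODE), Gucy1a3 at chr3:82092427-82145789 and Gucy1b3 at chr3:82032006-82074689. Gucy1b3 measured 35.6 CPM in Control 1 and 52.2 CPM in Control 2, and 63.9, 69.3 and 55.3 CPM in the Mutant libraries. The groups did not overlap, but Control 2 and Mutant 3 lay next to each other. Its log2 fold change was 0.52 (standard error 0.18), and it was 0.26 without Control 1 and 0.81 without Control 2. In bulk samples fewer cells of a type and less RNA per cell cannot be told apart, here and for each level below.

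Gucy1a3 came to 113 and 216 CPM in the Controls, with 198, 279 and 236 CPM in the Mutants. Control 1 was low and Control 2 lay above Mutant 1, so the groups overlapped. Its log2 fold change of 0.53 (standard error 0.27) was 0.13 without Control 1 and 1.06 without Control 2. Per kilobase of exon the alpha transcript exceeded the beta transcript in every library, by ratios of 1.79 and 2.33 in the Controls and 1.75, 2.27 and 2.40 in the Mutant libraries. The ratios of both groups overlapped, with a difference of 0.0783 between the means beside an SD of 0.38 in the Controls (n = 2) and 0.348 after deletion (n = 3). That difference was -0.191 without Control 1, 0.347 without Control 2, 0.276 without Mutant 1, 0.0127 without Mutant 2 and -0.0535 without Mutant 3.

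Pde5a, the phosphodiesterase specific for cyclic GMP and the target of sildenafil, lies at chr3:122728947-122859374 on the plus strand. It stood at 294 and 403 CPM in the Controls against 393, 485 and 465 CPM in the Mutants. Control 2 lay above Mutant 1, and the means of 349 ± 76.9 CPM (SD, n = 2) and 448 ± 48.3 CPM (SD, n = 3) differed by a log2 fold change of 0.36 (standard error 0.16), which was 0.15 without Control 1 and 0.60 without Control 2.

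Prkg1, the cyclic GMP-dependent protein kinase of smooth muscle, spans 1200.5 kb on the minus strand at chr19:30564489-31765033. Its level measured 83.8 CPM in Control 1 and 98.8 CPM in Control 2, and 93.9, 73.1 and 93.9 CPM in the Mutant libraries. The lowest and the highest library belonged to different groups and the others lay between them, with a log2 fold change of -0.071 (standard error 0.14) that took either sign, from -0.19 to 0.041, when single libraries were left out.

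Most myofibroblast and smooth muscle markers had a higher mean level after deletion, as did Gucy1a3, Gucy1b3 and Pde5a, while Prkg1 did not (log2 fold change -0.071). The summed level of 10 myofibroblast and smooth muscle markers came to 3155 and 3707 CPM in the Controls, with 3735, 4464 and 3981 CPM in the Mutants. Control 2 lay close to Mutant 1 in these sums. The log2 fold change was positive for 9 of 10 markers (median 0.45) and negative for Hhip (-0.47). All Mutant libraries lay above both Controls for 5 markers (Acta2, Tagln, Actg2, Des and Smtn), beside 16.0% of all genes tested. The groups overlapped for Myh11, Cnn1, Lmod1, Tgfbi and Hhip. Acta2, smooth muscle actin, stood at 407 and 655 CPM in the Controls against 764, 1070 and 907 CPM in the Mutants. As in Gucy1a3 and Pde5a, Control 1 was the lowest and Mutant 2 the highest library. For Prkg1 Mutant 2 was the lowest library, at 73.1 CPM. The 10 pericyte markers summed to 632 and 695 CPM in the Controls against 679, 709 and 591 CPM after deletion, with 6 of 10 positive and a median of 0.015, so these sums overlapped. The part of either cell type in the levels of the cyclic GMP genes was not tested.

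Among the cyclic AMP-specific phosphodiesterases of family 4, the targets of rolipram, Pde4b (chr4:102087543-102607259, plus strand) differed most in level. It measured 93.9 CPM in Control 1 and 80.2 CPM in Control 2, and 116, 180 and 176 CPM in the Mutant libraries. Every Mutant library lay above both Controls, although Mutant 1 lay nearer to the Controls than to the other two. The mean was 87.0 ± 9.72 CPM (SD, n = 2) in the Controls and 157 ± 35.5 CPM (SD, n = 3) after deletion, 1.81-fold higher. The log2 fold change of 0.85 (standard error 0.20) stayed between 0.73 and 1.02 when each library was left out in turn. Pde4b is also expressed in leukocytes, and all 8 leukocyte markers had a negative log2 fold change, with a median of -0.61. Their summed levels overlapped between the groups, at 404 to 526 CPM in the Controls and 213 to 438 CPM after deletion. The part of leukocytes in the level of Pde4b was not tested.

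Pde4a (chr9:21165714-21213248, plus strand) came to 14.3 and 17.0 CPM in the Controls, with 16.8, 24.4 and 25.3 CPM in the Mutants. Mutant 1 lay within the Controls and the other two above them. Its log2 fold change was 0.50 (standard error 0.20), with a range of 0.38 to 0.66 over the libraries left out.

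Pde4d spans 1503.5 kb at chr13:108449948-109953461 on the plus strand and was the most abundant of the family in the Control libraries per kilobase of exon, followed by Pde4b, whose Control values overlapped with those of Pde4d. It stood at 119 and 105 CPM in the Controls against 125, 110 and 161 CPM in the Mutants, where only Mutant 3 stood apart. Its log2 fold change of 0.24 (standard error 0.17) was 0.065 without Mutant 3 and 0.14 without Control 2.

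Pde7b, a cyclic AMP-specific enzyme of another family, lies at chr10:20398004-20725078 on the minus strand. Its level measured 14.9 CPM in Control 1 and 26.1 CPM in Control 2, and 22.5, 38.1 and 40.1 CPM in the Mutant libraries. The Controls differed from each other more in proportion than those of most of the 10 genes, and Mutant 1 lay between them. This log2 fold change of 0.71 (standard error 0.31) was 0.36 without Control 1 and 1.17 without Control 2.

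Pde3a, which breaks down cyclic AMP and is inhibited by cyclic GMP, lies at chr6:141249269-141507448 on the plus strand. It came to 35.9 and 43.4 CPM in the Controls, with 41.4, 42.3 and 35.4 CPM in the Mutants. The groups covered the same range, and the log2 fold change of 0.00085 (standard error 0.13) lay between -0.13 and 0.13 over the libraries left out. Gm28523 on the opposite strand covers 5.82% of the exon length of Pde3a, and whether reads were counted by strand is not stated, so reads in that stretch cannot be assigned.

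Prkar1b, a regulatory subunit of protein kinase A best known from the nervous system, lies at chr5:139017306-139150001 on the minus strand. It stood at 55.5 and 43.1 CPM in the Controls against 37.3, 26.9 and 34.8 CPM in the Mutants. All 3 Mutant values were under those of both Controls, with a mean of 0.669-fold the Control level and a log2 fold change of -0.58 (standard error 0.17). That value was -0.39 without Control 1 and -0.76 without Control 2. On the same strand Gm15672 covers 8.95% of the exon length of Prkar1b, so that part of the count is uncertain.

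The regulatory subunits of protein kinase A bind and hold back its catalytic subunits, and Prkar1b was a small part of their transcripts. Per kilobase of exon it made up 8.60% and 6.63% of the 4 regulatory subunit genes in the Controls and 5.34%, 4.31% and 5.31% in the Mutant libraries. The shares did not overlap, and their means differed by -2.63 percentage points, or -1.64 without Control 1 and -3.62 without Control 2. The widely expressed Prkar1a held 83.7% and 85.6% in the Controls and 86.3%, 86.7% and 86.7% after deletion.

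**Figure D2:**
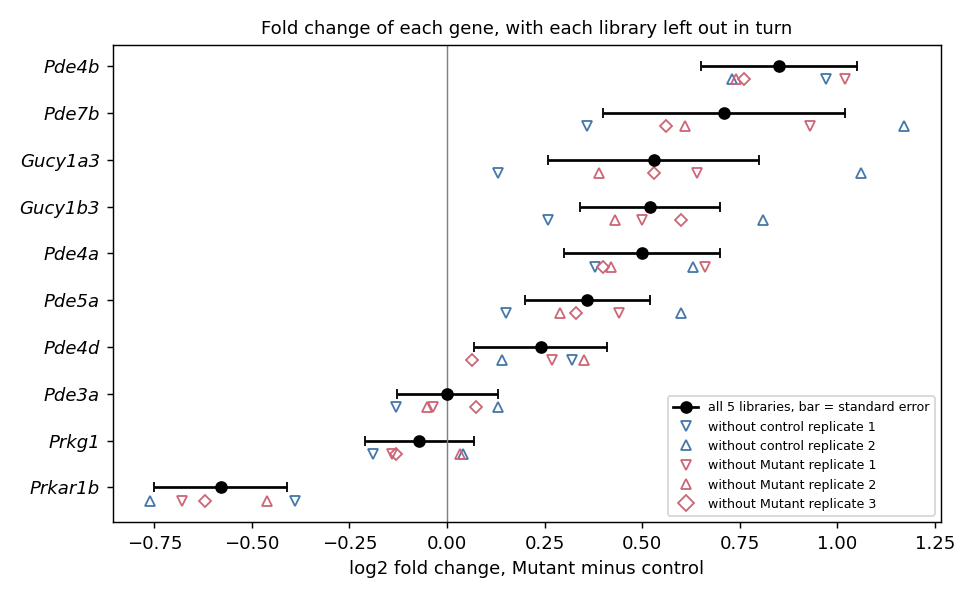
The log2 fold change of each gene (horizontal axis, Mutant minus Control) with its standard error as a black point and bar, and below it the value with each library left out in turn. Leaving out Control 1 or Control 2 (blue) gave the widest range for Gucy1a3, from 0.13 to 1.06, while Pde4b stayed between 0.73 and 1.02 and Prkar1b between -0.76 and -0.39.

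With 2 Controls, leaving out either of them moves a fold change in opposite ways by construction. Control 1 lay farther than Control 2 from the mean of the Mutant libraries in 7 of the 10 genes, and Mutant 1 was the Mutant library nearest to the Control mean in 8 of the 10. The median log2 fold change of the 10 was 0.21 without Control 1 and 0.61 without Control 2. The log2 fold changes of Pde5a, Gucy1a3, Gucy1b3, Pde7b and Pde4d each moved by over 1.5 times when a Control library was left out, and those of Prkg1 and Pde3a, both near 0, took either sign.

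Compared per kilobase of exon, the mean levels of the 10 genes in the Controls ran from Pde5a at 35.5 ± 7.82 CPM per kilobase (SD, n = 2) to Pde7b at 1.65 ± 0.639. Between them stood Gucy1a3 at 23.6, Prkar1b at 12.9, Gucy1b3 at 11.2, Pde4d at 9.32, Prkg1 at 8.41, Pde4b at 8.24, Pde3a at 3.11 and Pde4a at 2.04 CPM per kilobase. With ranges taken over all 5 libraries of both groups, neighbours in this order were separated only between Gucy1a3 and Prkar1b and between Pde4b and Pde3a. All other neighbours overlapped in these ranges. In the Controls alone Pde3a and Pde4a were separated as well. Compared within each library, Pde5a exceeded Gucy1a3 and Pde4a exceeded Pde7b in all 5. After Igf1r deletion Pde5a and Gucy1a3 still had the highest mean levels, at 45.6 and 34.1 CPM per kilobase. Gucy1b3 at 16.0 and Pde4b at 14.9 CPM per kilobase then stood above Prkar1b at 8.66.

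The 6 phosphodiesterases were then set against the whole family of these enzymes. The pool held the 21 genes with a catalytic domain, and left out the 3 non-catalytic family 6 subunit genes, of which Pde6d had 22.2 to 26.1 CPM. Its transcripts summed to 73.9 and 83.1 CPM per kilobase in the Controls and 86.3, 104 and 106 in the Mutant libraries. Pde5a alone held 40.5% and 49.3% of this pool in the Controls and 46.3%, 47.6% and 44.7% after deletion, so that its share overlapped between groups. Pde4b held 12.0% and 9.13% in the Controls and 12.8%, 16.4% and 15.8% after deletion, with no overlap.

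By substrate, the families specific for cyclic AMP (4, 7 and 8) held 39.2% and 33.8% of the pool in the Controls and 38%, 37.7% and 40.9% after deletion. Those specific for cyclic GMP (5, 9 and the catalytic genes of 6, which had few or no reads) held 43.2% and 51.6% in the Controls and 48.6%, 50.7% and 47.6% after deletion. Both shares overlapped between groups, and both differences between the means, 2.41 and 1.58 percentage points, changed sign when a Control library was left out, the first to -0.293 without Control 2 and the second to -2.59 without Control 1. The families that take both substrates (1, 2, 3, 10 and 11) held 17.6% and 14.7% in the Controls and 13.4%, 11.5% and 11.5% after deletion, without overlap. This difference of -3.99 percentage points was -5.46 to -2.53 over the libraries left out. A share also depends on the size of the pool, which was larger in every Mutant library, so a lower share need not mean fewer transcripts. Per kilobase, Pde3b and Pde3a, the most abundant genes of these families, overlapped between the groups, while the less abundant Pde2a was lower after deletion. With the 3 non-catalytic subunit genes added to the cyclic GMP-specific class, a setting chosen after the data were seen, that class held 50.1% and 57.4% in the Controls and 54.9%, 55.8% and 52.8% in the Mutants, and its difference was 0.695 percentage points.

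**Figure D3:**
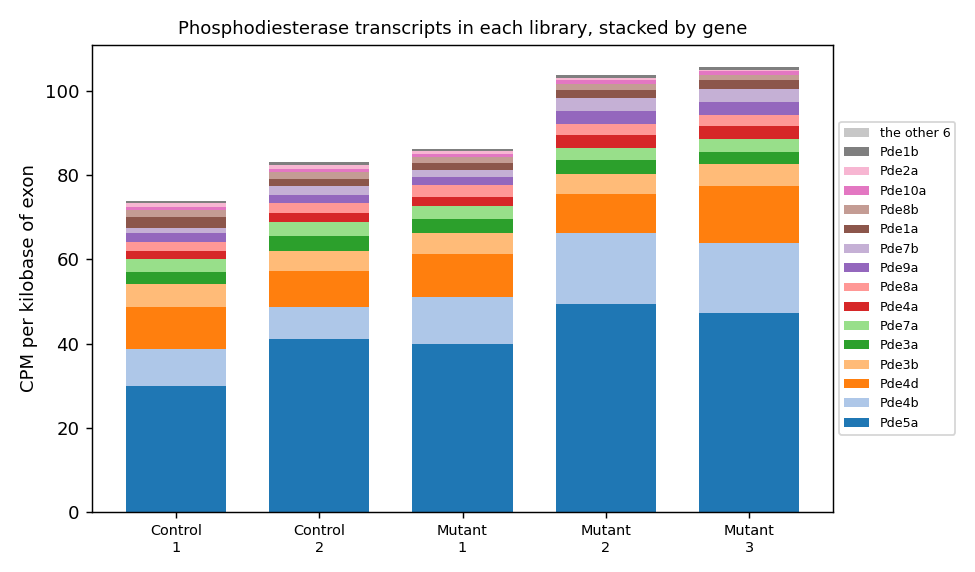
Transcripts of the phosphodiesterase genes in each library, stacked by gene (vertical axis, CPM per kilobase of exon, from 0), with the 6 least abundant genes summed. Pde5a is the largest block in every bar, and the Pde4b block is 7.59 and 8.89 CPM per kilobase in the Controls and 11 to 17.0 in the Mutant libraries.

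A wider set of 116 genes of cyclic nucleotide signaling, written out by role and without the 10 genes above, gave the surroundings of these values. Of these, 90 passed the filter on low counts. None had an adjusted p under 0.05 in edgeR's quasi-likelihood test (lowest 0.354). At an unadjusted p under 0.05, 7 were higher and 11 lower after Igf1r deletion, beside 5.65% and 6.75% of all genes tested (12.4% together), and DESeq2 called 0 higher and 3 lower, beside 0.477% and 1.23% of all genes to which it gave an adjusted p (1.70% together). The groups did not overlap for 14 higher and 15 lower genes, 15.6% and 16.7% of those tested beside 16.0% and 14.9% of all genes. The median log2 fold change was -0.018, beside 0.015 over all genes tested. These unadjusted counts depended on single libraries. They were 0 higher and 2 lower without Control 1, 12 higher without Mutant 1, 1 higher and 6 lower without Mutant 2, and 3 higher and 7 lower without Mutant 3.

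**Figure D4:**
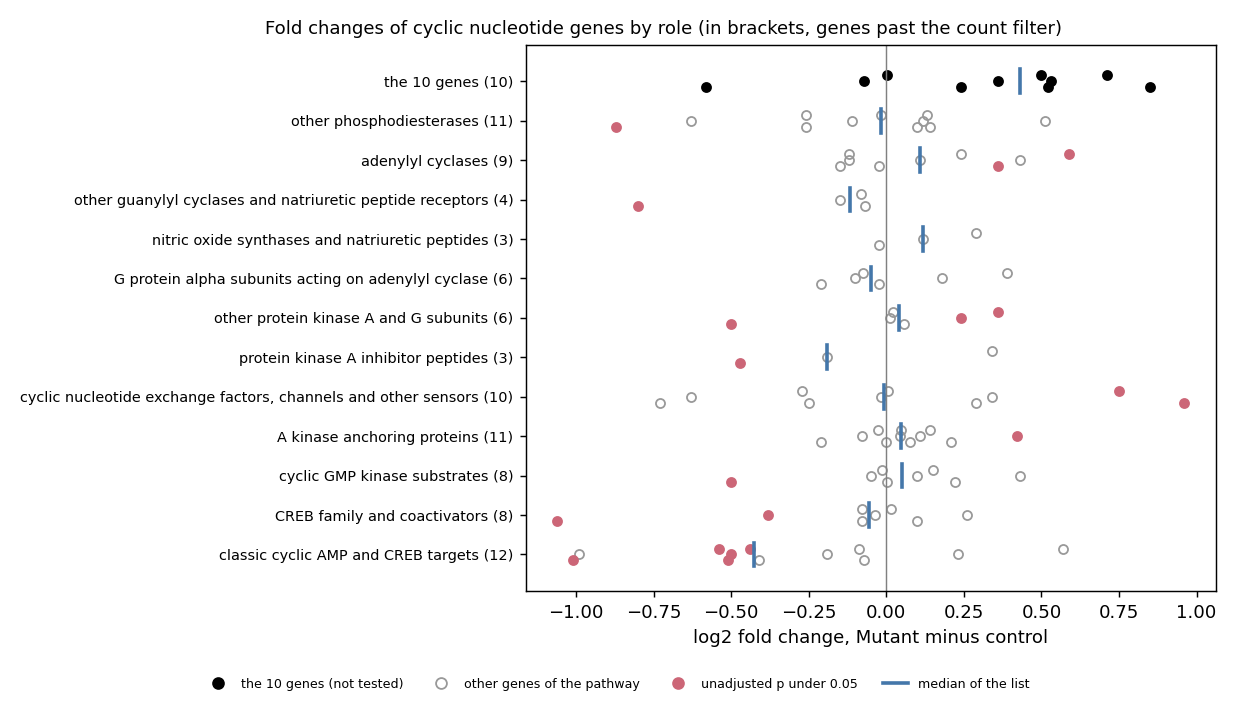
The log2 fold change (horizontal axis, Mutant minus Control) of the 10 genes, in black, and of the other genes of the pathway by role; red points have an unadjusted p under 0.05 and blue bars mark the median of each list. The median of the 10 genes is 0.43 and that of the cyclic AMP and CREB target list -0.43. The lists of adenylyl cyclases, kinase subunits and anchoring proteins have medians of 0.11, 0.04 and 0.049. The 10 genes and all lists were chosen with earlier results of these data known, so nothing is read from the distance between the medians.

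Of 18 other phosphodiesterases, 11 were tested, and only Pde2a had an unadjusted p under 0.05. Pde2a, which breaks down both cyclic nucleotides and is stimulated by cyclic GMP, measured 5.44 CPM in Control 1 and 5.35 CPM in Control 2, and 3.68, 3.32 and 1.86 CPM in the Mutant libraries. The edgeR adjusted p was 0.364 for this log2 fold change of -0.87 (standard error 0.31). Pde3b, a close relative of Pde3a and the gene of these 11 with the most reads, had a log2 fold change of -0.018.

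On the side of synthesis, 9 of 10 adenylyl cyclases were tested and 2 were higher at an unadjusted p under 0.05. Adcy3 came to 34.7 and 38.4 CPM in the Controls, with 42.0, 50 and 48.4 CPM in the Mutants, without overlap (log2 fold change 0.36, standard error 0.12, edgeR adjusted p = 0.354). The log2 fold change of Adcy7 was 0.59 (standard error 0.23, edgeR adjusted p = 0.39), with groups that overlapped, and 0.35 without Control 1. Adcy6, the adenylyl cyclase with the most reads, stood at 0.11. Of the stimulatory and inhibitory G protein alpha subunits that act on these enzymes, 0 of 6 had an unadjusted p under 0.05, and Gnas, with the most reads, had a log2 fold change of -0.024.

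Among the other guanylyl cyclases and natriuretic peptide receptors 4 of 10 were tested. Npr3, the receptor that clears natriuretic peptides, stood at 811 and 453 CPM in the Controls against 447, 309 and 330 CPM in the Mutants. Control 2 and Mutant 1 nearly coincided, and the log2 fold change of -0.80 (standard error 0.26, edgeR adjusted p = 0.354) was -0.33 without Control 1. Of the nitric oxide synthases and natriuretic peptides, 3 of 6 were tested and none had an unadjusted p under 0.05, Nos3, the endothelial synthase with the most reads in that list, among them.

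Among the 6 other subunits of protein kinases A and G, all of which were tested, Prkar2b, another regulatory subunit of protein kinase A, measured 17.2 CPM in Control 1 and 18.1 CPM in Control 2, and 24.2, 21.7 and 21.9 CPM in the Mutant libraries. Its direction was opposite to that of Prkar1b, with a log2 fold change of 0.36 (standard error 0.11, edgeR adjusted p = 0.354). For the catalytic subunit gene Prkaca the value was 0.24 (standard error 0.10, edgeR adjusted p = 0.398), or 0.15 without Control 1, and for Prkar1a, with the most reads in the list, 0.058. Prkg2, the second cyclic GMP-dependent kinase, came to 66.5 and 44.5 CPM in the Controls, with 45.2, 33.3 and 39.3 CPM in the Mutants, with groups that overlapped (log2 fold change -0.50, standard error 0.19, edgeR adjusted p = 0.385, with -0.19 without Control 1 and -0.77 without Control 2). Per kilobase of exon the ratio of Prkg1 to Prkg2 was 0.623 and 1.10 in the Controls and 1.03, 1.08 and 1.18 in the Mutant libraries, so Control 1 alone stood apart.

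Pkig, an inhibitor peptide of protein kinase A, stood at 62.5 and 51.1 CPM in the Controls against 48.2, 39.8 and 35.3 CPM in the Mutants (log2 fold change -0.47, standard error 0.16, edgeR adjusted p = 0.354), and Pkia, with the most reads of the 3 inhibitor genes, had a log2 fold change of 0.34, or 0.07 without Control 1 and 0.66 without Control 2. Of 10 exchange factors, channels and other sensors tested, 2 cyclic nucleotide-gated pacemaker channels were higher at an unadjusted p under 0.05, both at low levels. Hcn2 had 1.01 and 1.12 CPM in the Controls and 1.64 to 2.56 CPM after deletion, and Hcn3 had 1.27 and 1.69 CPM against 2.44 to 2.53 CPM. Of 11 A kinase anchoring proteins tested, only Akap12, a scaffold for protein kinase A and for beta-adrenergic receptors, had an unadjusted p under 0.05, with 1203 and 1580 CPM in the Controls against 1859, 1806 and 1913 CPM after deletion (log2 fold change 0.42, standard error 0.15, edgeR adjusted p = 0.364, with a log2 fold change of 0.23 without Control 1).

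Downstream, 1 of 8 cyclic GMP kinase substrates had an unadjusted p under 0.05, Rgs2, a brake on G protein signaling that is also counted among the CREB targets. Rgs2 measured 608 CPM in Control 1 and 466 CPM in Control 2, and 363, 349 and 429 CPM in the Mutant libraries, without overlap. The log2 difference was -0.50 (standard error 0.15, edgeR adjusted p = 0.354), or -0.30 without Control 1. Of 8 genes of the CREB family and its coactivators, 2 were lower at an unadjusted p under 0.05. Crem, which encodes activators and repressors at the CRE, came to 77.1 and 63.2 CPM in the Controls, with 56.9, 18.2 and 25.7 CPM in the Mutants, so that Mutant 1 lay close to the Controls (log2 fold change -1.06, standard error 0.42, edgeR adjusted p = 0.391, with a log2 fold change of -1.68 without Mutant 1). The coactivator gene Crtc3, with the most reads in this list, stood at 188 and 171 CPM in the Controls against 144, 136 and 133 CPM in the Mutants (log2 fold change -0.38, standard error 0.10). Its adjusted p was 0.354 by edgeR and 0.0291 by DESeq2, the lowest over 12 other settings. The log2 fold change of Crtc3 was -0.32 without Control 1 and -0.46 without Control 2.

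The list of classic cyclic AMP and CREB targets, like the others, was chosen with earlier results of these data known. Of its genes 12 of 14 were tested, and 10 had a negative log2 fold change, with a median of -0.43. At an unadjusted p under 0.05, 5 were lower, beside 6.75% of all genes tested. These 5 were Nr4a3, Fos, Junb, Dusp1 and Rgs2, which are immediate early genes that also answer to other signals. The groups overlapped for 5 others, with log2 fold changes of -0.071 for Nr4a1, -0.089 for Nr4a2, -0.19 for Fosb, -0.41 for Per1 and 0.23 for Sik1. At low levels, Areg was lower (-0.99, Control mean 1.26 CPM) and Ppargc1a higher (0.57, Control mean 2.19 CPM), both without overlap. In all, 6 genes were lower and 1 higher without overlap, 58.3% of those tested beside 31.0% of all genes. Nothing is read from this share of a chosen list. Nr4a3, an orphan nuclear receptor, measured 181 CPM in Control 1 and 178 CPM in Control 2, and 146, 48.0 and 74.0 CPM in the Mutant libraries, a log2 fold change of -1.01 (standard error 0.39, edgeR adjusted p = 0.387) that was -1.57 without Mutant 1. Dusp1, a phosphatase of MAP kinases, came to 1111 and 943 CPM in the Controls, with 744, 659 and 758 CPM in the Mutants, and Junb, a subunit of the AP-1 transcription factor, 3186 and 2547 CPM against 1891, 1860 and 2177 CPM. The groups did not overlap for either gene. Their log2 fold changes were -0.51 (standard error 0.13) and -0.54 (standard error 0.15). DESeq2 gave adjusted p-values of 0.0112 for Dusp1 and 0.0227 for Junb where edgeR gave 0.354 for both, so these calls depended on the method. Without Control 1 the log2 fold changes were -0.40 for Dusp1 and -0.37 for Junb. For Fos, the partner of the Jun proteins in AP-1, the log2 fold change was -0.44 (standard error 0.15, edgeR adjusted p = 0.357), with no overlap between the groups and a value of -0.27 without Control 1.

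Likeness between the 10 genes was measured as the root mean square difference of log2 CPM over the 5 libraries, after each gene was centred on its own mean. The most alike pair was Pde4a and Pde5a, at 0.139, followed by Pde5a and Gucy1b3 at 0.166. The cyclase subunits stood 0.196 (Gucy1a3) and 0.166 (Gucy1b3) from Pde5a, the gene of the 10 nearest to each. The most distant pair was Pde7b and Prkar1b, at 0.842. Over all genes tested the nearest to Pde4b was Ryr3, a calcium release channel, at 0.044, and the nearest to Gucy1b3 was Iqgap2, a scaffold protein, at 0.051. The nearest to Pde5a was Tspyl3 at 0.0197, to Pde4a Plekhg2 at 0.0249, to Pde4d Gk5 at 0.0244, to Pde3a Nudt8 at 0.0172 and to Prkar1b Dusp28 at 0.0379. For Prkg1 it was A330076H08Rik at 0.0258, for Pde7b Ccdc42 at 0.0546 and for Gucy1a3 AW046200 at 0.0563. Some of these had low levels, with AW046200 at 0.432 to 1.16 CPM, Ccdc42 at 0.806 to 2.29 CPM and Ryr3 at 1.88 to 4.22 CPM. With 5 libraries many genes lie this close to any one gene. In the most alike pair, 359 genes were nearer to Pde4a than Pde5a was, and 930 were nearer to Pde5a than Pde4a was. For Pde3a, 6157 genes were nearer than Prkg1, its nearest among the 10.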

How the data were processed

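The deposited table held raw counts per gene for 5 libraries (2 Control, 3 Mutant), made by the authors from paired-end reads. The submitters' processing notes name Trim Galore, Bowtie2, Cufflinks and DESeq with the build mm10. The sources used here do not give their versions, the annotation or whether counting was stranded. Here, 4833 of 23478 genes had 0 counts in every library, and 15298 passed filterByExpr. Genotype was fitted with edgeR 4.0.16 (R 4.3.3, TMM factors 0.9612 to 1.058, two-sided quasi-likelihood test, Benjamini-Hochberg adjustment, threshold 0.05), with log2 CPM on a prior count of 2. The fit was tested on simulated data.

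Alternatives were DESeq2 1.42.0, its size factors, library totals, filters on counts, the replicate block and each library left out. The 10 genes and all lists were chosen with earlier results of these data known. Named pathway genes were the tested gene of each list with the highest mean CPM and every gene with an unadjusted p under 0.05. Of the genes this rule names, 1 is not reported here. Pde12 and Pde4dip were chosen after their values were seen. Exon lengths and coordinates came from GENCODE M21 (mm10), with 22114 symbols matched directly and 991 through an older symbol. Promoters came from RefSeq (GRCm38.p6). An exact permutation of 2 against 3 libraries cannot give a p under 0.1, so none is given for single values. Replicates of a group differed by more than sampling noise (chi-square per degree of freedom 24.4 to 53.4), so that each library was counted once.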

Additional observations from a re-analysis of the deposited data

How the results depend on the processing

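Each of the 10 genes had at least 496 reads in every library, and the small number of libraries limited the precision more than the depth. Of 120 recomputed fold changes of the 10 genes, 117 stayed within 1 SD between libraries. The 3 beyond it came without Control 2 (Pde5a 0.60, Gucy1a3 1.06 and Gucy1b3 0.81). That SD was taken from the same libraries, so the count of 117 cannot show that the values are stable. Within that bound Pde7b still ran from 0.36 without Control 1 to 1.17 without Control 2. The count of all genes with an adjusted p under 0.05 was 0 by edgeR, 200 by DESeq2, 136 with the replicate block and 0 to 45 without single libraries (45 without Control 2, 5 without Mutant 1, 4 without Mutant 2). The replicate numbers are known here only as labels, and whether they mark pairs cannot be told. Same-numbered deviations correlated at 0.208 and 0.121 over 2 pairs, and those of Control 2 and Mutant 3, with different numbers, at 0.119. With 2 Controls the remaining pairs only repeat these values with the sign reversed. The replicate block gave 0 pathway genes at an adjusted p under 0.05. DESeq2 gave 3 and left 3563 genes without an adjusted p. Without single libraries, pathway genes at an unadjusted p under 0.05 numbered 0 to 12 higher (7 with all) and 2 to 13 lower (11 with all). The median of the 10 fold changes was 0.36 with the replicate block, 0.51 with library totals and 0.21 to 0.61 without single libraries. The shares of the phosphodiesterase pool differed by -0.293 to 5.12 percentage points for the cyclic AMP-specific and -2.59 to 5.75 for the cyclic GMP-specific families, and the share of Prkar1b by -3.62 to -1.64. The causes were not tested.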

Other observations

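Pde12 and Pde4dip carry the name of the family and belong to none of the lists. Pde12, an enzyme known for acting on RNA and not on cyclic nucleotides, measured 75.6 CPM in Control 1 and 61.6 CPM in Control 2, and 40.8, 35.5 and 34.3 CPM in the Mutant libraries. All Mutant libraries lay below both Controls, with a log2 fold change of -0.90 (standard error 0.13, edgeR adjusted p = 0.31). DESeq2 gave an adjusted p of 1.17e-05, so the call depended on the method. Pde4dip, whose product binds Pde4d, came to 27.1 and 35.7 CPM in the Controls, with 41.2, 38.8 and 45.2 CPM in the Mutants, with a log2 fold change of 0.41 (standard error 0.14, edgeR adjusted p = 0.357). Both were chosen after their values were seen.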
